A study of Mus musculus with 2 samples.

Results

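Among accessible sites far from promoters in newborn mouse lung, 15551 lay in the first intron of a protein-coding gene. They were chosen on chromosomes 1 to 19 by merging the overlapping DNase-seq peaks of both libraries and keeping the 157228 merged sites, of 283349, that held peaks of both (shared sites). A shared site was distal if its centre lay over 1000 bp from every annotated transcription start site (TSS) and in no exon. The centre also had to lie in the first intron of the longest transcript of a GENCODE protein-coding gene. The 15551 made up 13.9% of the 111667 shared distal sites (exact binomial 95% interval 13.7 to 14.1%, counting error only). They were compared with 32591 distal sites in the later introns of the same set of transcripts. The choice used position and presence in both lists, and no score or sequence.

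The study mapped open chromatin in whole lung of mice of the strain given as B6NCrl at postnatal day 0, in 1 group of 2 biological replicates with no other tissue or treatment analysed here. The labels list 1 biosample for each replicate, name a single donor record for both and leave the sex uncollected, so whether the replicates are different animals is not stated. Whole lung mixes epithelium, vessels, mesenchyme and blood cells, and in such bulk tissue a weaker site in every cell and a strong site in few cells cannot be told apart. On these chromosomes replicate 1 listed 269825 peaks and replicate 2 listed 183814. How deeply each library was sequenced is not known here. Shared promoter sites, within 500 bp of a TSS of the gene, were found for 10 of 10 alveolar type 2 markers, 8 of 9 alveolar type 1 markers with an intron, 14 of 15 endothelial, 4 of 8 myeloid and 4 of 6 lymphoid markers. Of markers of other tissues, 8 of 10 neuronal, 3 of 8 skeletal muscle and 1 of 6 liver genes had one, so that an open promoter alone did not separate lung lists from the neuronal list. Most protein-coding genes whose first intron could hold a distal centre also had one. With first introns under 5 kb, 4109 had one and 2353 had none. The counts were 3490 and 884 at 5 to 20 kb, 1967 and 205 at 20 to 100 kb, and 297 and 57 over 100 kb.

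DNase I cuts where nucleosomes are displaced, so that peaks of cutting mark promoters, enhancers and insulators. The first intron follows the first exon directly and is, in mammals, on average the longest intron of a gene. First introns are known to hold many enhancers that act on the promoter beside them, and polymerase crosses them early in elongation. CTCF, a zinc-finger protein that binds a long conserved motif, marks boundaries between chromatin loops and domains.

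The strongest of these sites are shown to let their base composition be seen beside their scores. Each line gives the plus strand of mm10 (GRCm38), 5′ to 3′, over the 150 bp around the site's centre, read from the reference genome. Capitals mark the KLF/SP box GGGCGGG, the GATA motif AGATAA and the E-box CACGTG on either strand, where one of them is present.
Creb3l1, chr2:92008396-92008545: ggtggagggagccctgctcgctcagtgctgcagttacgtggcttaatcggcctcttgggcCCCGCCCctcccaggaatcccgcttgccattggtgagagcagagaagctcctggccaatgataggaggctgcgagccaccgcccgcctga
Aida, chr1:183299236-183299385: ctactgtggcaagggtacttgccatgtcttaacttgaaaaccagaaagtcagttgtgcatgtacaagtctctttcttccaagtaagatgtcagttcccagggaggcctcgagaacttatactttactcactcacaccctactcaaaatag
Maml3, chr3:52102186-52102335: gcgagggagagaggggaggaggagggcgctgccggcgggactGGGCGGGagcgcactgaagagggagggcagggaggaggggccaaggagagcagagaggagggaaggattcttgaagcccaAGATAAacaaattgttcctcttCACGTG
4931414P19Rik, chr14:54603416-54603565: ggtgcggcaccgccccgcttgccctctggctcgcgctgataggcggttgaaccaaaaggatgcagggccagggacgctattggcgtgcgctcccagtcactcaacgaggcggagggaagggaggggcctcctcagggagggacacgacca
Gtf2a1, chr12:91588376-91588525: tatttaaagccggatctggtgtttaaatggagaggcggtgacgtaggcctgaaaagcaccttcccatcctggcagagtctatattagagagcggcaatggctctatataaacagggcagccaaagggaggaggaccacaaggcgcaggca

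The authors' peak score, which takes whole values no higher than the 150 bp width of a peak, was 145 in replicate 1 and 134 in replicate 2 for the site of Creb3l1, which encodes a membrane-bound transcription factor of the secretory pathway. It lay 16031 bp from the transcript start. The site of Aida, whose protein binds axin, had 142 and 135 and none of the 27 motifs searched. The site of Maml3, a Notch coactivator gene, had 145 and 129. The site of the uncharacterised gene 4931414P19Rik had 142 and 129, and that of Gtf2a1, a subunit gene of the general factor TFIIA, had 140 and 128. The sources used here do not say what this score measures. The GC content of these 5 windows ran from 43.3% in Aida to 67.3% in 4931414P19Rik.

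The other sites among the 10 strongest lay in Nr1d1 (143 and 124), the clock repressor gene; Egln3 (140 and 125), an oxygen-sensing prolyl hydroxylase gene; Cdkn1a (137 and 129), the cell-cycle inhibitor p21; Hist1h2be (139 and 125), a histone H2B gene; and Trp53 (137 and 128), which encodes p53. Most of the 10 lay close to the transcript start. Distances were 1109 bp in Trp53, 1322 bp in Nr1d1, 1558 bp in Gtf2a1 and 1700 bp in Cdkn1a. They were 2262 bp in Aida, 2502 bp in 4931414P19Rik and 2815 bp in Maml3. All first-intron sites had a lower quartile of 4456.5 bp. Egln3, at 11679 bp, Creb3l1 and Hist1h2be had theirs further out. Windows of Maml3, 4931414P19Rik, Nr1d1, Cdkn1a and Trp53 were rich in CpG as defined below, beside 3.16% of all first-intron sites. The site in Hist1h2be lay 35073 bp from the start of the gene model used and 4453 bp from the nearest GENCODE TSS. It lay 81 bp from a TSS that RefSeq annotates and GENCODE did not, so that its assignment to this histone gene is uncertain. Of all 15551 sites, 768 (4.94%) lay within 1000 bp of a RefSeq TSS, as did 7.40% of the 1555 strongest by rank in both lists.

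Further windows show the sequence motifs described below. Capitals mark, in order, the ETS motif CCGGAAG in Rbms1, the ETS motif ACAGGAAG on the minus strand in Tpm4 and the CTCF consensus in Gm14226. The last was added after its values had been seen.
Rbms1, chr2:60901566-60901715: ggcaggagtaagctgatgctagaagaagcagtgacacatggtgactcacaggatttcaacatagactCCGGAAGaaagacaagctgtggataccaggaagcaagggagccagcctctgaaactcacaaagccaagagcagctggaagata
Tpm4, chr8:72136786-72136935: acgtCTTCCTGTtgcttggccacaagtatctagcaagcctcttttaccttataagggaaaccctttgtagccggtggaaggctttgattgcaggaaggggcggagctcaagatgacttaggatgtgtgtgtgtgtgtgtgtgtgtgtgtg
Gm14226, chr2:155019826-155019975: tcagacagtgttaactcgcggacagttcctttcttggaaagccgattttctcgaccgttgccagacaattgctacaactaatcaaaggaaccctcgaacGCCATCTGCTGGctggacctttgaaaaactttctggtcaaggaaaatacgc

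Scores in replicates 1 and 2 were 127 and 109 in Rbms1, an RNA-binding protein gene, and 141 and 113 in Tpm4, a tropomyosin gene. The CTCF-bearing site in Gm14226 had 118 and 100.

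Distal sites were denser in first introns than in later introns. Per megabase of intron sequence that could have held such a centre (eligible sequence), there were 83.1 shared sites in first introns and 61.8 in later introns. The ratio was 1.34 (95% interval for counting error 1.32 to 1.37). In replicate 1 alone the densities were 153 and 107 per Mb, a ratio of 1.43 (1.41 to 1.45). In replicate 2 they were 94.0 and 69.6 per Mb, a ratio of 1.35 (1.33 to 1.37). First introns thus stood higher in each library. They made up 26.2% of the eligible intron sequence (187.2 Mb, beside 527.6 Mb in later introns) and held 32.3% of the intronic sites (31.9 to 32.7%). With 1 group of 2 libraries there was no test over samples, and these intervals treat neighbouring sites as independent.

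Density fell over introns 1 to 5 rather than only between the first intron and the rest. Each intron number pools the genes that have such an intron, so that the numbers do not compare the same genes. Shared sites per Mb were 83.1 in intron 1, 69.5 in intron 2, 63.0 in intron 3, 60.2 in intron 4, 57.5 in intron 5 and 58.8 in later ones. Replicate 1 fell from 153 in intron 1 to 123 in intron 2 and 100 from intron 6 on. Replicate 2 fell from 94.0 to 77.8 and 66.6. Both lists thus gave the same order over introns 1 to 5, and values from intron 5 on were nearly level in each.

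**Figure D1:**
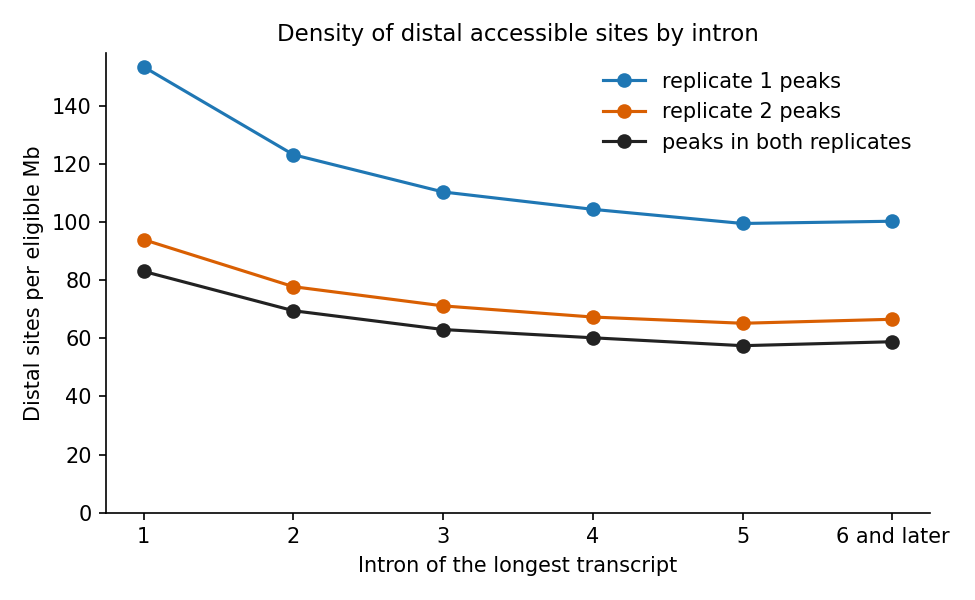
Distal sites per eligible Mb (y axis) by intron of the longest transcript (x axis), for peaks of replicate 1, peaks of replicate 2 and sites with peaks in both. Intron 1 is the highest point of each line, at 153, 94.0 and 83.1 per Mb.

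Sites clustered near the transcript start, and the surplus over later introns was largest there. At 1 to 2 kb from the start, first introns held 184 shared sites per Mb and later introns 109, a ratio of 1.69 (1.48 to 1.94). The ratio was 1.52 (1.41 to 1.64) at 2 to 5 kb, 1.27 (1.20 to 1.36) at 5 to 10 kb, 1.26 (1.19 to 1.32) at 10 to 20 kb and 1.10 (1.06 to 1.15) at 20 to 50 kb. Later introns did not fall steadily with distance. They held 69.0 sites per Mb at 2 to 5 kb, 65.4 at 5 to 10 kb, 65.1 at 10 to 20 kb and 71.5 at 20 to 50 kb. At 50 to 100 kb the order turned, with 69.2 per Mb in first introns and 74.0 in later introns (0.935, 0.888 to 0.984). Beyond 100 kb the values were 48.5 and 50.7 (0.957, 0.908 to 1.01), an interval that includes 1. The first-intron value of this bin rests on 1581 pairs of gene and site over 32.6 eligible Mb. These include most of the 461 sites of the gene model Gm20388 (13.0 per 100 kb), which spans many other genes and is described below. The bin was not computed without Gm20388, so that the near-equality may not hold for other genes. The distance of a site from the transcript start had a median of 14833 bp. The ratio was above 1 in the 5 bins up to 50 kb and in no other.

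**Figure D2:**
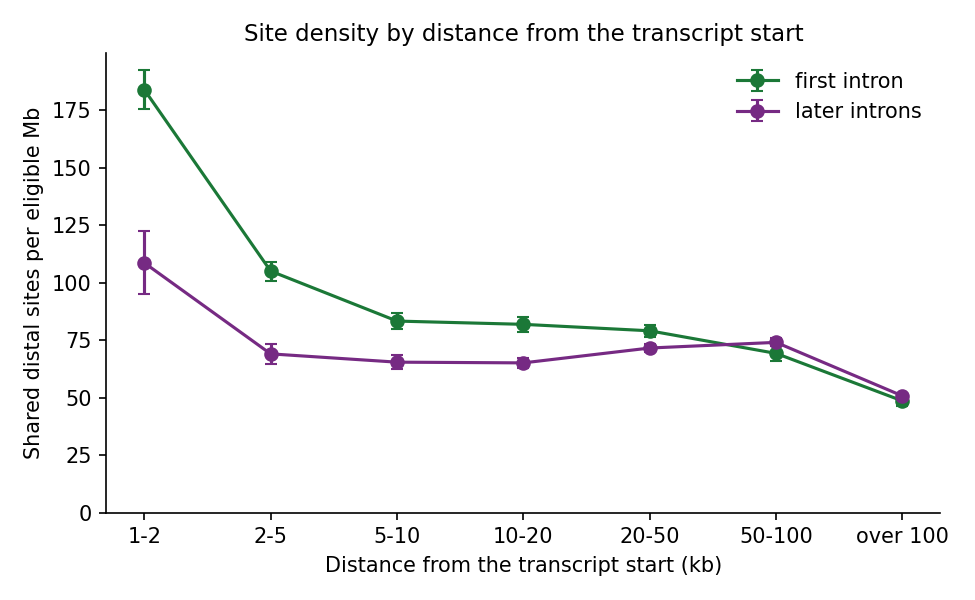
Shared distal sites per eligible Mb (y axis) by distance from the transcript start in kb (x axis), for first and later introns, with 95% counting intervals (normal approximation) as bars. First introns start at 184 per Mb against 109 and fall below later introns at 50 to 100 kb (69.2 against 74.0).

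Within first introns of at least 20 kb, cut into 3 equal parts, the 5′ part held 80.3 sites per Mb, the middle 69.6 and the 3′ part 75.7. The lowest value was thus in the middle. Long first introns were sparser. Those under 5 kb held 106 sites per Mb, those of 5 to 20 kb 103, those of 20 to 100 kb 93.0 and those over 100 kb 52.8. Neighbouring sites of the same intron had a median spacing of 3830 bp, and 22.0% of 10817 such gaps were under 1 kb.

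The surplus was seen in genes with an open promoter. In genes with a shared promoter site, first introns held 90.9 sites per Mb and later introns 67.4, a ratio of 1.35 (1.32 to 1.37). In genes with none, the densities were 33.0 and 32.5, a ratio of 1.02 (0.943 to 1.09). The 2 intervals did not overlap, but the difference between the ratios was not tested. First-intron sites of genes without a promoter site were also weaker, at median scores of 54 (replicate 1) and 38 (replicate 2), compared with 66 and 46 where the promoter was open.

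Scores of first-intron sites were slightly above those of later-intron sites in each list. In replicate 1 the median was 66 (quartiles 50 and 85) in first introns and 62 (46 and 82) in later introns. In replicate 2 it was 45 (34 and 60) and 43 (32 and 59). The distributions overlapped almost wholly, and sites within 1000 bp of a TSS or in exons were stronger, with medians of 82 and 59. At matched distance from the start, medians of the 2 intron classes differed by between -3 and 2 score units. First-intron sites just inside the TSS limit, up to 250 bp beyond it (942 sites), had medians of 66 and 47. Shared sites in the 250 bp just outside it, which were left out (1289 sites), had 66 and 46.

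Of the 30651 distal first-intron sites of either library, 50.7% were shared (50.2 to 51.3%), against 53.9% in later introns (53.5 to 54.3%). The gap lay in replicate 1. Its first-intron sites had a replicate 2 peak in 54.2% of cases and its later-intron sites in 57.8%, while 88.7% and 88.9% of replicate 2 sites had a replicate 1 peak. Sites found in replicate 1 alone were 1.55 times as dense in first introns (1.52 to 1.59). Hotspots, the authors' broader regions of enriched cutting, covered 99.4% of first-intron sites in replicate 1 and 98.3% in replicate 2. Their median widths there were 353 and 249 bp, against 337 and 253 bp at later-intron sites. In replicate 2 the hotspot −log10 q-value reached its listed ceiling of 100 at 32.7% of first-intron sites and 38.0% of later-intron sites, and in replicate 1 at 61.4% and 62.9%.

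The CTCF consensus was less common in first-intron sites than in later-intron or intergenic ones. It was found in 364 of 15551 first-intron sites (2.34%, 2.11 to 2.59%) and in 4.81% of later-intron sites (4.58 to 5.05%), a ratio of 0.487. Intergenic distal sites held it in 5.22% of cases and all shared distal sites in 4.53%. Motif matches here are of letters in a 150 bp window and are not evidence of binding. Per eligible Mb, sites with the consensus numbered 1.94 in first introns and 2.97 in later introns (ratio 0.655, 0.583 to 0.734), while sites without it numbered 81.1 and 58.8 (1.38, 1.35 to 1.41). The 2 kinds of site were thus distributed in opposite directions.

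The share rose with each later intron. Among shared sites it was 2.34% in intron 1, 2.92% in intron 2, 4.03% in intron 3, 4.71% in intron 4, 5.22% in intron 5 and 6.05% from intron 6 on. In replicate 1 it went from 1.40% (1.26 to 1.54%) to 3.72% (3.48 to 3.96%), and in replicate 2 from 2.13% (1.92 to 2.36%) to 5.48% (5.14 to 5.84%). Density was also higher at the later end, from 1.94 shared CTCF sites per Mb in intron 1 to 2.03 in intron 2 and 3.56 from intron 6 on. In the single libraries it was level or nearly so between introns 1 and 2, at 2.14 and 2.12 per Mb in replicate 1 and 2.00 and 2.09 in replicate 2, and reached 3.73 and 3.65 from intron 6 on. In shared sites the intervals of introns 1 and 2 met (2.11 to 2.59% and 2.56 to 3.32%), while that of intron 3 lay above both (3.49 to 4.62%).

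**Figure D3:**
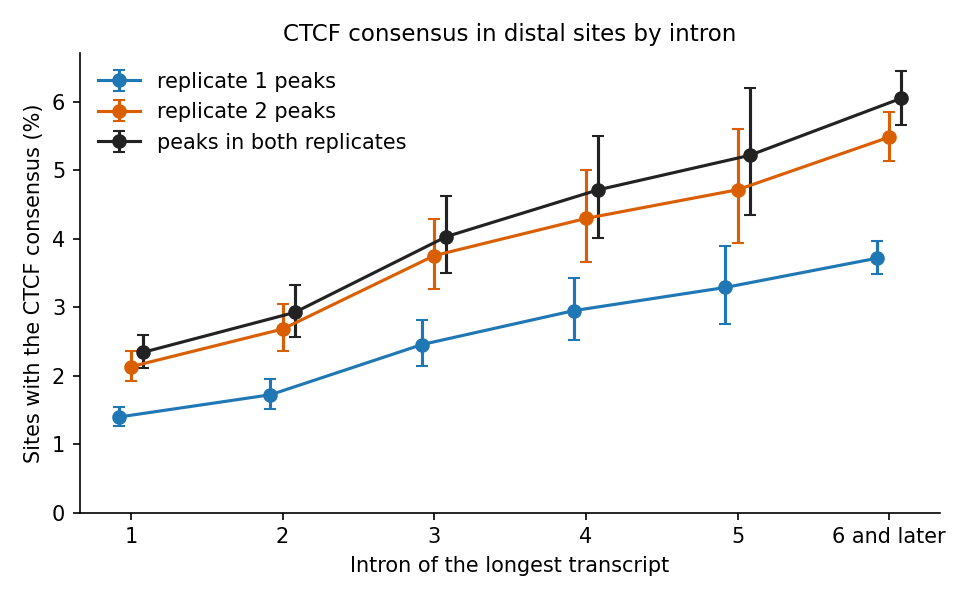
Share of distal sites whose 150 bp window holds the CTCF consensus (y axis, %) by intron of the longest transcript (x axis), with exact binomial 95% intervals as bars. Each of the 3 lines rises from intron 1 to intron 6 and later, for shared sites from 2.34% to 6.05%.

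Shares were also lower in first introns when sites were matched on distance, base composition or gene. At 5 to 10 kb from the transcript start, 2.23% of first-intron sites (1.65 to 2.95%) and 6.43% of later-intron sites (5.33 to 7.68%) held the consensus. At 20 to 50 kb the shares were 2.30% and 5.45%, and at 50 to 100 kb 2.09% and 4.46%. In the bin over 100 kb the intervals overlapped almost wholly, at 3.77% (2.84 to 4.91%) and 3.94% (3.60 to 4.31%). The first-intron side of this bin, 53 of 1404 sites, includes many sites of the gene model Gm20388, described below. Of the 461 sites of Gm20388, 24 held the consensus. The shares of this bin were not computed without them, so that the overlap may not hold for other genes. In the 6 bins of GC content the first-intron share was always the lower, for example 2.01% against 4.42% at 45 to 50% GC. In the 3189 genes with distal sites in both classes, 1.88% of first-intron and 4.49% of later-intron sites held the consensus. The gap differed with the number of introns of the gene. With 2 to 5 introns the shares were 3.14% (2.58 to 3.79%) in first and 4.49% (3.87 to 5.18%) in later introns. With 21 or more they were 1.55% and 4.88%. Soft-masked repeats contained 7.42% of the first-intron and 7.66% of the later-intron matches.

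Sites with the consensus were the stronger ones in both lists and in both intron classes. In first introns their median score was 73.5 (66 without it) in replicate 1 and 61 (45 without it) in replicate 2. In later introns it was 76 (62 without it) and 61 (42 without it). In first introns the consensus lay on the strand of the gene in 47.9% of cases (42.7 to 53.2%), an interval that includes 50%. In first introns of genes without a shared promoter site it was found in 4.79% of 918 sites, and with one in 2.19% of 14633. The later-intron shares were 5.98% and 4.70%, so that the gap between the intron classes was smaller in genes without a promoter site. The difference between these gaps was not tested. Sites of a single library rarely held it, at 0.335% of replicate 1 sites and 0.354% of replicate 2 sites in first introns, against 0.470% and 0.839% in later introns.

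Some motifs that hold a CpG were more common in first-intron than in later-intron sites. The KLF/SP box GGGCGGG, bound by zinc-finger activators of many promoters, was found in 3.65% of them and 2.62% of later-intron sites, a ratio of 1.39, beside 2.95% of all shared distal sites. The E-box CACGTG, bound by MYC, USF and clock factors, had 3.30% and 2.81% (2.88% of all distal sites). The ETS motif CCGGAAG had 1.50% and 1.18% (1.36%). Intergenic distal sites held KLF/SP in 3.06%, the E-box CACGTG in 2.84% and the ETS motif CCGGAAG in 1.47% of cases. For this ETS motif the first-intron share was thus near the intergenic one. At matched distance the KLF/SP shares had no single order. They were 7.29% in first and 7.38% in later introns at 1 to 2 kb, 3.20% and 4.55% at 5 to 10 kb, and 3.13% and 2.37% at 20 to 50 kb. The other motifs had no single order either. The E-box CACGTG was in 3.14% of first-intron and 3.72% of later-intron sites at 2 to 5 kb, and the ETS motif CCGGAAG in 1.55% and 2.46% at 1 to 2 kb. At matched GC content the first-intron share of KLF/SP was the higher in 5 of the 6 bins, for example 3.01% against 2.57% at 50 to 55% GC. Windows rich in CpG (observed to expected CpG of at least 0.6 and GC of at least 50%) made up 3.16% of first-intron sites (2.89 to 3.45%) and 1.79% of later-intron sites (1.65 to 1.95%). All shared distal sites had 3.09% (2.99 to 3.19%) and intergenic ones 3.93% (3.76 to 4.11%). The first-intron share was thus near that of all distal sites, and the later-intron share was the low one. Among first-intron sites, such windows were most frequent near the start, with 11.1% at 1 to 2 kb, 3.34% at 2 to 5 kb and 1.82% at 5 to 20 kb. The CpG-rich sites had median scores of 76.5 and 54, and 16.7% of these 492 sites lay within 1000 bp of a RefSeq TSS.

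Motifs of several factors with roles in lung cells had shares whose intervals overlapped between the intron classes. The TEAD motif GGAATG, read by the effectors of the Hippo pathway, was in 13.3% of first-intron and 13.1% of later-intron sites (12.9% of all distal sites). The arm TTGGCA of the nuclear factor I motif was in 14.5% and 14.3% (14.4%), FOX TGTTTAC in 4.52% and 4.34% (4.38%) and the GATA-factor motif AGATAA in 7.15% and 7.25% (7.25%). AP-1 TGANTCA was in 11.1% and 10.3% (10.5%), and ETS ACAGGAAG in 4.15% and 3.86% (3.83%). RUNX TGTGGTT, the motif of blood and skeletal regulators, was in 3.74% (3.44 to 4.05%) and 4.18% (3.96 to 4.40%), beside 4.01% of all distal sites. All motifs were searched on both strands. AP-1, the E-box CACGTG and some others read the same on either strand.

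**Figure D4:**
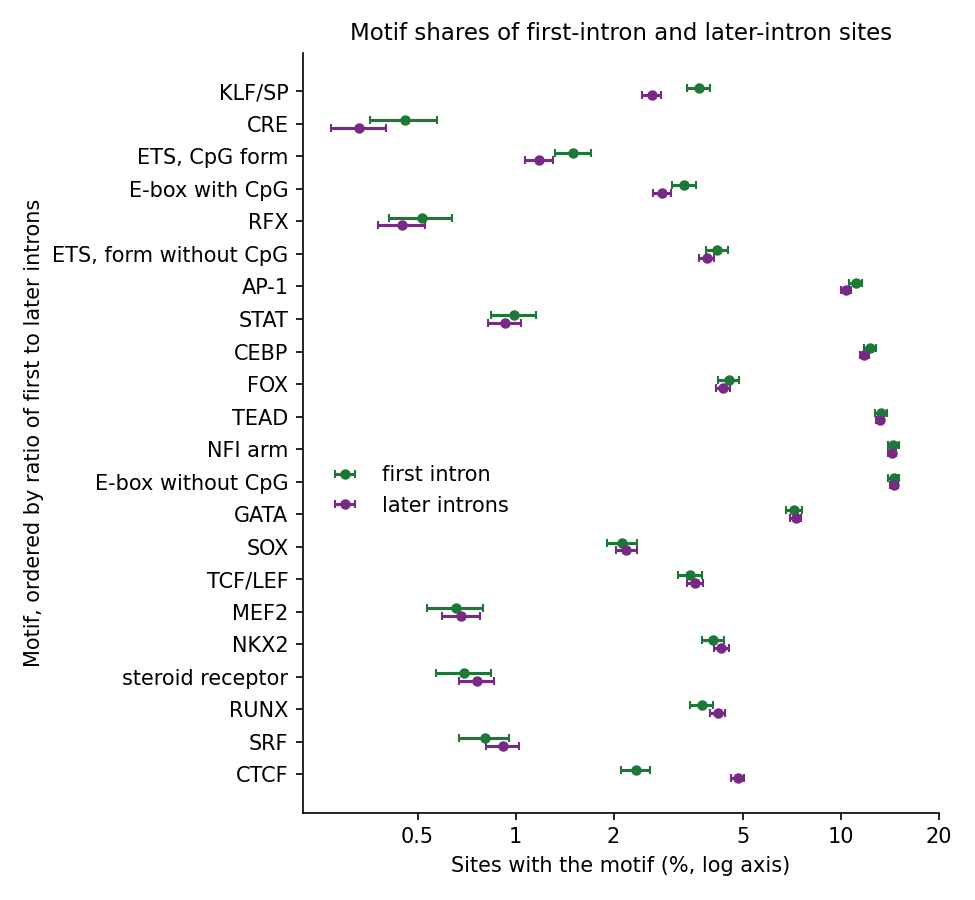
Share of sites holding each motif (x axis, %, log scale) for the motifs found in at least 0.4% of first-intron sites (y axis, ordered by the ratio of shares), with exact binomial 95% intervals as bars. CTCF lies far apart at the bottom (2.34% against 4.81%) and KLF/SP stands at the top (3.65% against 2.62%).

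Counted by gene, 5030 of the 13362 genes with eligible first-intron sequence held 1 or more of the sites (37.6%). Of the 3933 genes with at least 10 kb of it, 3072 did (78.1%). Among 2789 genes with at least 10 kb eligible in both classes and a site, 1535 (55.0%) were denser in the first intron and 1254 in the later introns, so that the gene by gene split was close to even. Genes with a site held a median of 2. One site was found in 2088 genes and 10 or more in 252. The 503 genes with the most sites held 38.6% of all gene and site pairs.

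**Figure D5:**
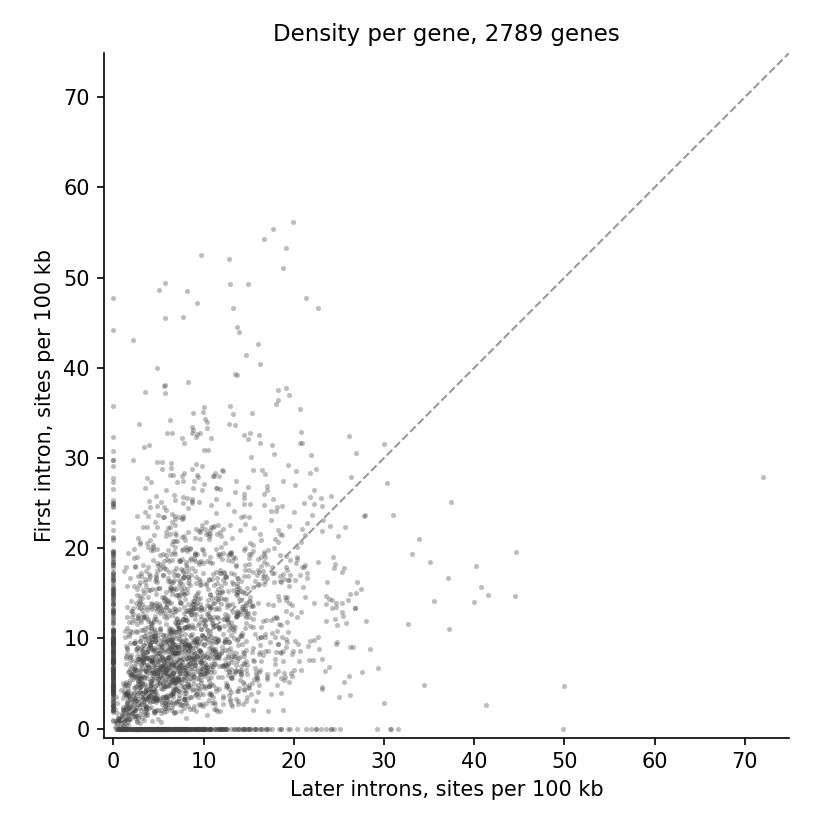
Shared distal sites per 100 kb of eligible sequence in the first intron (y axis) and the later introns (x axis), 1 point per gene, for the 2789 genes with 10 kb or more in both and a site. The dashed line marks equal density, and 1535 points lie above it.

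The gene model Gm20388 had the most sites, 461, but its first intron of 4384 kb spans the starts of 72 other protein-coding genes, so that its sites cannot be assigned to it. It held 2.96% of all first-intron sites. Without it as a host, 15181 sites remained, with a density ratio of 1.33 and a CTCF ratio of 0.468. Rora, which encodes a nuclear receptor of the clock, had 51 sites in an intron of 542 kb. Their scores ran from 9 to 118 in replicate 1 (median 60) and from 10 to 85 in replicate 2 (median 38). Cmss1, a nucleolar protein gene, had 43, Maml3 had 40 and 1 of 2 gene models named Arhgap26 had 39. The first introns of Cmss1 and of this Arhgap26 model each span the start of 1 other protein-coding gene. No shared site lay at the promoters of this Arhgap26 model. Ror1, a receptor gene of non-canonical Wnt signalling, had 35, Rbms1 had 31, the adhesion gene Cadm1 and the zinc-finger gene Tshz2 29 each, and Dlc1 28. Dlc1 scores ran from 48 to 123 (median 75.5) and from 30 to 107 (median 52).

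Among genes with at least 10 kb of eligible first intron, Cavin1, whose protein coats caveolae, was the densest. It held 7 sites in 10129 eligible bp of an intron of 10664 bp, or 69.1 per 100 kb of eligible sequence. Their scores in replicates 1 and 2 were 97 and 84, 59 and 52, 91 and 73, 119 and 88, 91 and 61, 76 and 56, and 70 and 42. The site with the highest score in each list was the same. Rhbdf2, which encodes a regulator of ADAM17 trafficking, had 9 sites (66.7 per 100 kb) and Nfil3, a bZIP repressor gene, 7 (63.3). Soga1 (56.1), the annexin gene Anxa6 (55.4), the calcium channel gene Orai1 (55.0), Tbc1d16 (54.3), the actinin gene Actn4 (53.2 with 17 sites), the protocadherin gene Dchs1 (52.9) and Tbcel (52.5) followed. In Actn4 the later introns held 19.1 per 100 kb.

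Gene lists were read beside the 37.6% of all genes with a site, and their first introns differed much in length. Alveolar type 1 genes, of the flat cells of gas exchange, had a site in 7 of 7 genes with eligible sequence, at a median of 17.6 kb of it. Of those with at least 10 kb, 5 of 5 had one, beside 78.1% of all such genes. Hopx, a homeodomain protein gene of these cells, had 6 sites and 34.0 per 100 kb. Its scores were 52 and 33, 115 and 74, 67 and 38, 51 and 31, 92 and 53, and 76 and 47 in replicates 1 and 2. One site, 2594 bp from the nearest TSS, stood above the rest in both. Pdpn, the podoplanin gene, had 5, with scores from 51 to 116 and from 45 to 95, though no shared site lay at its promoters. Clic5, an intracellular channel gene, had 8, and scores from 62 to 118 and from 34 to 90.

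Alveolar type 2 genes, of the surfactant-making cells, had a site in 3 of 7 at a median of 4.82 kb. These were Abca3 (61 and 30), the surfactant lipid transporter gene, Napsa (81 and 51), the protease gene of surfactant protein processing, and Etv5 (89 and 80), an ETS factor gene. Lpcat1, of surfactant lipid synthesis, had none in 13836 eligible bp. Of lung epithelial factors 6 of 7 had one. Foxp1 had 17 with a median of 51 and 37, Foxp2 had 3, and Foxa1 had 5 within its first 2750 bp, at 89 and 83 for the one nearest its start and 43 to 63 and 32 to 50 for the others.

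Fibroblast and mesenchyme genes had sites in 7 of 11. Nkd1, a Wnt feedback inhibitor gene, had 14 (33.6 per 100 kb, against 13.5 in its later introns). Eln, the elastin gene, had 3 at 78 and 48, 75 and 49, and 76 and 75, the last standing out in replicate 2 only. Fbn1, the fibrillin gene, had 3. Smooth muscle and pericyte genes had sites in 7 of 8, with 3 each in Cspg4, Lmod1 and Myocd. Of endothelial genes 5 of 10 had one. Tek, the angiopoietin receptor gene, had 5 at 57 and 41, 102 and 60, 121 and 88, 40 and 28, and 53 and 34, and Cdh5 and Eng had 2 each. Calcrl and Emcn had none in 16679 and 30553 eligible bp.

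Morphogen receptors and effectors had a site in 17 of 17 genes with eligible sequence, at a median of 23.2 kb, and in 15 of 15 with at least 10 kb, beside 78.1% of all such genes. Smad3, the transducer gene of TGF-beta, had 13, with median scores of 94 and 65. It was denser in its later introns (40.7 against 15.6 per 100 kb). Gli2, a Hedgehog effector gene, had 10 (19.9 against 11.4). Notch2 had 6 at 93 and 70, 128 and 115, 96 and 82, 81 and 39, 91 and 55, and 67 and 51. Of 14 such genes with 10 kb or more in both classes, 10 were denser in the first intron, beside 55.0% of all 2789 such genes with a site. Pooled over the list, densities were nearly equal, at 12.8 per 100 kb in first introns and 12.2 in later introns.

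Glucocorticoid response and clock genes had sites in 4 of 7. Per2, a clock repressor gene, had 5 in 7458 eligible bp (67.0 per 100 kb). Their scores were 79 and 49, 82 and 46, 131 and 109, 103 and 64, and 66 and 45. Fkbp5, the chaperone gene that glucocorticoids induce, had 3, the strongest at 107 and 90. Nuclear factor I and Tead genes had sites in 5 of 8, among them Tead1 with 12, Tead4 with 8 and Nfia with 1 at 61 and 49. Genes of cyclic AMP and vascular tone had sites in 5 of 8. Pde3a, a phosphodiesterase gene, had 16, of which the strongest had 134 and 109, Prkg1, the cGMP kinase gene, had 14 and Pde4b had 10. Gucy1a1, a guanylate cyclase subunit gene, had none in 24823 eligible bp.

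Skeletal muscle genes had none in 7, at a median of 0.272 kb, liver genes none in 2 and lymphoid genes none in 2. Ikzf1, of lymphocytes, had none in 10592 eligible bp. Myeloid genes had sites in 3 of 6, at 26.0 per 100 kb over 15.4 kb of eligible sequence, the highest density of the 16 lists from 4 sites. They lay in Csf1r with 2 (60 and 33, and 50 and 43) and Itgam and Mrc1 with 1 each, at 20 and 12 and at 65 and 46. Neuronal genes had sites in 3 of 6. Cntnap2, whose first intron is 593607 bp long, had 4, with median scores of 39.5 and 22.5. Its density was 0.722 per 100 kb of eligible sequence. Housekeeping genes had a site in 1 of 3, Polr2a, at 101 and 76.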

How the data were processed

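DNase-seq peaks and hotspots of 2 whole-lung libraries were used. Per the file headers and notes, the authors called both on each library's own alignments to mm10, while the aligner and the caller are not given in the sources used here. Deposited peaks carry the authors' score, used within each list only, and the deposited hotspots a −log10 q-value. Depth was not given, so no value was scaled by it. Exact duplicate peaks (25 and 22) were removed. Peaks overlapping by at least 1 bp were merged. Annotation was GENCODE M21 on GRCm38, and the longest transcript had the most exonic bases of any biotype. Eligible bases passed the same TSS and exon rule as a centre. Ratios of densities carry exact conditional intervals and shares exact binomial ones at 95%, which cover counting error only.

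Named genes were the 10 with the most sites, the 10 densest with at least 10 kb, the 10 strongest sites, and per list the 3 genes with the most sites and up to 2 with at least 10 kb and none. Sequences shown were the 5 strongest sites and the strongest site with each of 5 motifs with the highest ratio of shares to later introns, among motifs in at least 1% of first-intron sites. Gm14226 was chosen after its values were seen. The site with the AP-1 motif is not reported here. Of 181 listed genes in 16 lists, those with eligible sequence were counted. The members, lists and motifs were chosen with earlier results of these data known. The counting steps were tested on simulated data. Alternatives covered each replicate, overlap, score, TSS distance and transcript choice. Exclusion of Gm20388, RefSeq TSSs, and transcript choice for motifs were added after the data were seen. Python 3.11.15, numpy 2.4.6, pandas 2.3.3, scipy 1.17.1 and matplotlib 3.10.9 were used.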

Additional observations from a re-analysis of the deposited data

How the results depend on the processing

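No paired analysis was possible because the 2 libraries form 1 group. Leaving out a replicate gave 17597 to 28735 first-intron sites, a density ratio of 1.35 to 1.43, a first-intron share of intronic sites of 32.4 to 33.7%, a score difference (first minus later) of 2 in replicate 1 and 3 in replicate 2, a CpG-rich share of 2.56 to 3.02% and a CTCF ratio of 0.476 to 0.486. Sites with scores at or above the median of both lists numbered 8468, with a density ratio of 1.48, a share of 34.5%, score differences of 0 in replicate 1 and -1 in replicate 2, 4.07% CpG-rich windows and a CTCF ratio of 0.420. At 2000 bp from any TSS the ratio was 1.25, the share 29.9%, the CpG-rich share 2.03% and the CTCF ratio 0.525. With RefSeq transcripts the share was 28.0%, the CTCF ratio 0.468 and the ratio for the ETS motif without a CpG 0.992. The CTCF ratio was 0.528 with the transcript of the longest span, 0.476 with the longest protein_coding transcript, 0.468 without Gm20388, and 0.503 with RefSeq TSSs also kept 1000 bp away, which gave 2.77% CpG-rich windows. An overlap of at least 50% of the peak gave 48.1% of sites shared. The cause of these changes was not tested. The density ratio stayed above 1 and the CTCF ratio below 1 in each of these settings.

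Depth was not given, so that it is not known how many weak sites replicate 2 lacks. Neighbouring sites share a locus, and intervals are therefore too narrow. Scores end at the peak width.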
